A study of Mus musculus with 2 samples.

Results

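The B cells of the infarcted mouse ventricle were described from the comparison table of cluster 2, the cluster that the study names B cells, and all 159 genes listed in that table were taken as members. The 18 cluster tables of the study list 6477 distinct genes. The table of cluster 2 was the shortest of the 18, the other 17 listing between 317 and 1914 genes. Interstitial cells, the cells other than cardiomyocytes, were released from the ventricles by Langendorff perfusion after ligation of a coronary artery in adult mice, viable cells were sorted, and 1 library per genotype was made with 10x Chromium V3.1 chemistry. Control hearts carried PostnMCM, a Cre recombinase placed in the Postn locus, which tamoxifen switches on in fibroblasts as they turn into myofibroblasts. The other hearts were Yapfl/fl;Wwtr1fl/+;PostnMCM, in which the same Cre can act on 2 floxed alleles of Yap1 and 1 of Wwtr1, and both strains carried the R26-eGFP reporter. Both groups were fed chow with 0.4 g/kg tamoxifen citrate for 6 days from the infarction, and the labels place collection of the hearts at 6 days, while the study's text places it a day later. B cells are not the cells in which the Postn locus drives Cre, so the comparison asks how their transcripts differed when the targeted cells were myofibroblasts around them. The number of hearts behind each library is not given in the sources used here.

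B cells recognise antigen through a membrane immunoglobulin that signals through the Cd79a and Cd79b chains. Kinases downstream of the receptor engage phosphoinositide signalling and, through a complex that contains Malt1, the NF-kB factors, while phosphatases such as Inpp5d restrain the response. After myocardial infarction B cells gather in the injured ventricle, where they release cytokines and chemokines that affect the recruitment of monocytes. Type I interferon, which infarct macrophages can produce, induces antiviral genes in neighbouring immune cells.

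Each value is a share of B cells, namely those in which the gene had a corrected count above 0, and is given by library, the control first and the library labelled depleted after it in each pair of shares. Genes are listed only where at least 25% of cells had the gene in either library and the difference in mean level passed a minimum set by the authors, so a gene missing from a table has no value there, and a gene under 25% in 1 library had to differ to be listed. Differences are percentage points, the library labelled depleted minus the control library, and a difference of 10 points is used below as a limit of size. With 1 library per group there is no replicate check and no test. The number of cells and the depth behind each share are not given, so neither an error nor an interval is given. Control shares of clusters 10 and 18 take only widely spaced values, such as 9.1%, 18.2% and 36.4%, and so rest on few cells. The same holds for control shares of cluster 9 and for shares of cluster 17 in the library labelled depleted. A share near 100% has no room to move, and a share of cells does not tell fewer transcripts per cell from fewer cells with any. No values of single cells were used here, so cell barcodes held by both libraries were not counted.

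The label of the cluster could be checked against only 1 of its 4 defining markers. Cd79b, a signalling chain of the B cell receptor, was found in 99.5% of control cells and 98.4% of cells of the library labelled depleted. Its only other listing was in cluster 9, at 23.5% and 38.1%. Cd79a, Ms4a1 and Ighm are listed in none of the 18 cluster tables, and so have no value in these cells. The 4 fibroblast subclusters have tables without a lower limit, but the authors normalised them apart from the 18 clusters, so their shares are on another scale and are not set against those of the B cells. There Cd79b was found in 5.0% to 8.7% of control cells, while the library labelled depleted gave 0% to 15.6%. Mzb1, a chaperone of immunoglobulin assembly, was at 68.0% and 69.6% in the B cells. The targeted transcripts Yap1 and Wwtr1 and the driver Postn are listed in no cluster table. In the fibroblast subclusters the share of cells with Yap1 was higher in the library labelled depleted in 3 of 4, and the share with Wwtr1 was lower in 3 of 4. A share of cells with any count does not show whether a floxed allele was cut, and 1 allele of Wwtr1 is not floxed. These shares therefore cannot judge the depletion, which the study assessed by staining for both proteins in tissue sections. The word labelled is kept throughout as the name of the library and casts no doubt on it.

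Of the 159 genes, 60 had a higher share of cells in the library labelled depleted, 79 had a lower share and 20 had the same share in both. By at least 10 points 44 genes were higher, which is 27.7% of the table against 34.2% of all listings in the other 17 tables, and 31 were lower, 19.5% against 38.8%. The median difference over the 159 genes was 0.0 points. Differences of at least 20 points were held by 9 higher and 5 lower genes. Listing itself favoured differences, since 35 genes passed 25% of cells in 1 library alone, 24 of them higher and 11 lower in the library labelled depleted. Among the 124 genes at 25% or more in both libraries, 21 were higher and 22 were lower by at least 10 points. All cluster tables come from the same pair of libraries, so a gene that differs in several clusters has not been seen in independent samples. A gene under 25% in 1 library of a cluster could also be listed there in 1 direction only. A shared direction across clusters was set in part by that limit.

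**Figure D1:**
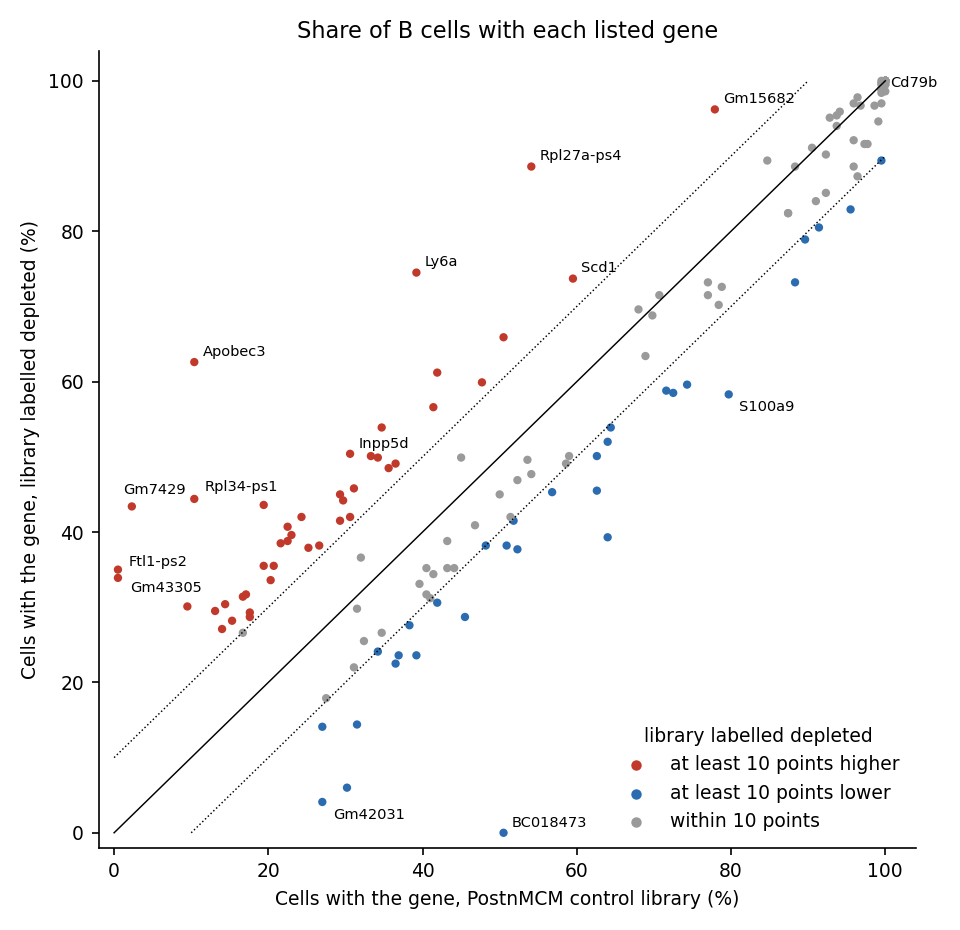
Each point is 1 of the 159 genes listed for the B cells, with the share of control cells that had the gene on the x axis and the share in the library labelled depleted on the y axis, both in percent. The solid line marks equal shares and the dotted lines mark 10 points, so that the 44 red genes lie above the upper line, Apobec3 and Ly6a among them, and the 31 blue genes lie on or below the lower line, with BC018473 at 0%.

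Genes known from the interferon response held the 2 largest differences among protein-coding genes, those of Apobec3 and Ly6a. Apobec3, a cytidine deaminase that restricts retroviruses, was found in 10.4% of control cells and 62.6% of cells of the library labelled depleted, a difference of 52.2 points and the largest of the table. It was listed in 13 other clusters and was higher in each, by 18.1 to 66.2 points, from control shares of 9.1% to 50%. Ly6a, which encodes the surface protein Sca-1 and is induced by interferon in lymphocytes, was found in 39.2% and 74.5% of B cells. In the 6 other clusters that list Ly6a its share was higher in 3 and lower in 3. In cluster 4, which the study names T cells, it was 46.5% in the control and 31.7% in the library labelled depleted. Ifi27, a small mitochondrial protein induced by interferon, was found in 17.6% and 28.7%.

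Other genes of the same response differed little or in the other direction. Of a list of 57 interferon-stimulated genes, 7 are listed in the B cells, of which 4 were higher by at least 10 points, 2 were lower and 1 was within 10 points, in a table of which 27.7% was higher and 19.5% lower. Apobec3 and Ifi27 passed 25% of cells only in the library labelled depleted, and so could be listed only as higher. The median difference of these 7 was 11.1 points, beside 0.0 over all 159 genes. Ifi30, a lysosomal reductase that prepares antigen for presentation on MHC class II, was lower, at 99.5% in the control and 89.4% in the library labelled depleted. Ifitm2, a membrane protein that blocks viral entry, was at 89.6% and 78.9%. Ifi27l2a, whose annotated span overlaps that of Ifi27 on the opposite strand, was at 93.7% and 95.4%. The 3 listed genes of the 16 in the IFI200 family, which encode sensors and regulators related to nucleic acid binding, were all within 10 points and lower. Among them Ifi203 was at 77.0% and 71.5%, Ifi209 at 53.6% and 49.6%, and Mndal at 87.4% and 82.4%.

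The table lists 3 neighbouring tripartite-motif genes on chromosome 7. All were under 25% of cells in the control, so they could be listed only by being higher in the library labelled depleted, and their shared direction was set by that limit. Members of this family include factors that restrict retroviral capsids. Trim5 was chosen after its values were seen, as a neighbour of the other two. In GRCm39 Trim34a lies at chr7:103893663-103911446 on the plus strand, Trim5 at chr7:103912592-103937420 and Trim12a at chr7:103945967-103964797, the last pair on the minus strand, with gaps of 1146 and 8547 bases between them. Trim34a was found in 19.4% of control cells and 43.6% of cells of the library labelled depleted. It was listed in 2 other clusters, both named T cells by the study, at 8.2% and 27.8% in cluster 4 and at 13.5% and 33.3% in cluster 8. Trim5 was found in 13.1% and 29.5% of B cells, and was otherwise listed only in cluster 15, at 12.5% and 36.4%. Trim12a was found in 24.3% and 42.0%, and was higher in all 11 other clusters that list it, by 9.3 to 25.6 points. Only in clusters 8 and 15 was its control share at least 25%. Its remaining listings, and those of Trim34a and Trim5 in other clusters, could again only be higher. Gvin3, which belongs to the very large interferon-inducible GTPases and is annotated as a transcribed pseudogene, was found in 34.7% and 53.9% of B cells and was higher in 10 other clusters by 1.4 to 32.8 points.

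The promoters of these 3 genes and of Apobec3 are printed because they are the ones, among the genes higher by at least 10 points, that hold the core of an interferon-stimulated response element, searched as GAAA, any 2 bases and GAAA, or for the opposite strand as TTTC, any 2 bases and TTTC. Each window runs from 250 bases before to 50 bases after the start of the gene in the RefSeq annotation of GRCm38.p6, an earlier build than that of the tables, is written 5′ to 3′ on the strand of the gene, and has the match in capitals. In that build the windows lie at chr7:104244207-104244506 on the plus strand for Trim34a, at chr7:104288057-104288356 on the minus strand for Trim5, at chr7:104315446-104315745 on the minus strand for Trim12a and at chr15:79892158-79892457 on the plus strand for Apobec3.
Trim34a: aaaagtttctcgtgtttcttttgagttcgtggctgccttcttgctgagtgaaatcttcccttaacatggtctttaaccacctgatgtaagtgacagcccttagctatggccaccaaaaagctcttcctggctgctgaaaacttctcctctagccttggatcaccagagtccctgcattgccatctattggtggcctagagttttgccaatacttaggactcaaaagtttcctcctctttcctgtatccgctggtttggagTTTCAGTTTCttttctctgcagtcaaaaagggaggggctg
Trim5: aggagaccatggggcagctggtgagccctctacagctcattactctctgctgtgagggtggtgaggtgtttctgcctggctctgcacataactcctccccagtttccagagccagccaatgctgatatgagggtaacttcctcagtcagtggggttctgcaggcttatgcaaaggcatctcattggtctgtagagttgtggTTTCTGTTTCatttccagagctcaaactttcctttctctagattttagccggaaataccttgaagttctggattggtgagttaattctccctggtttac
Trim12a: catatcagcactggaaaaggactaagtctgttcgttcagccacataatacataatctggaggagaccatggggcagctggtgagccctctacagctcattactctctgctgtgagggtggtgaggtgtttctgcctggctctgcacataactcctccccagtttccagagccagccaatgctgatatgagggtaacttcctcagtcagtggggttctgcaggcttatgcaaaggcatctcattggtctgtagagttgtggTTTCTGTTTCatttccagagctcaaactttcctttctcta
Apobec3: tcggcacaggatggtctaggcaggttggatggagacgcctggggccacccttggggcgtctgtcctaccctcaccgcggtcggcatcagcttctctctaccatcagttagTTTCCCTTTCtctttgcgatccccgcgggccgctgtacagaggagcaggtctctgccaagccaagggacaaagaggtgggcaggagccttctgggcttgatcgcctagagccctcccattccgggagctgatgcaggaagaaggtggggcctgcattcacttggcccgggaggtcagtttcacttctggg

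A gene can have more than 1 window and was counted once if any of its windows held such a match. Over all 27025 genes of the promoter table, 3.99% had a match. Among the listed genes with a window 11 had one, which is 10.1%. These were 4 of 27 genes higher by at least 10 points, 1 of 23 of those lower, namely Ifitm2, and 6 of 59 of those within 10 points. All 4 of the higher genes with a match passed 25% of cells only in the library labelled depleted, so this split by direction rests on genes that could be listed only as higher, and nothing is read from it. The windows of Trim5 and Trim12a share an identical run of 241 bases and therefore count as 1 sequence for this purpose. Reads from transcripts as alike as those of these paralogs can be split or lost in counting, which makes their separate shares uncertain. A match describes the letters of a window and does not show that a factor binds there. Ly6a had no window in the table.

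**Figure D2:**
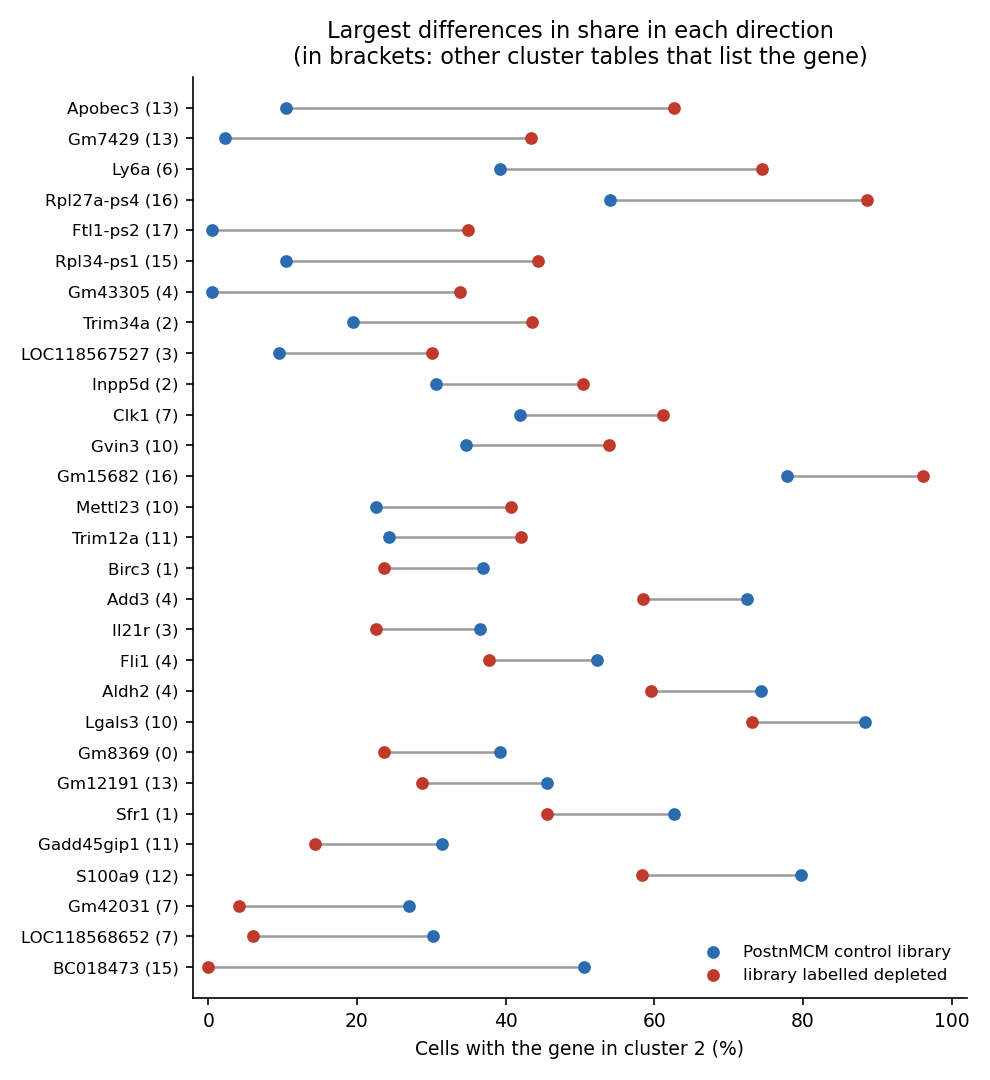
For the genes with the largest differences in each direction, the share of B cells with the gene is drawn in percent, the control library and the library labelled depleted as separate points joined by a line. BC018473 spans from 50.5% to 0% and Apobec3 from 10.4% to 62.6%, while Gm43305 and Ftl1-ps2 both start at 0.5% in the control library.

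Several listed genes have known roles in antigen receptor signalling or the NF-kB pathway. Inpp5d, which encodes the inositol phosphatase SHIP-1 and restrains signalling at the receptor, was found in 30.6% of control B cells and 50.4% of those of the library labelled depleted. It was the only one of 19 genes of a B cell receptor signalling list with a listing here. Clusters 0 and 1 list it too, with differences between 11.2 and 14.8 points. Malt1, the protease of the complex that joins receptor signals to NF-kB, was found in 29.3% and 41.5% of B cells and is listed in no other cluster. Rel, the NF-kB subunit c-Rel, was lower, at 56.8% and 45.3%. Birc3, an inhibitor of apoptosis that is itself a target of NF-kB, was at 36.9% and 23.6%, and is otherwise listed only in cluster 17, where it was lower as well.

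Other listed genes encode adaptors and surface receptors of lymphocytes. Several of the genes in this paragraph, Pag1, Sla, Grap, Slamf6, Cd48, Btla and Gimap3, were chosen after their values were seen. Pag1, an adaptor that holds Src-family kinases in check, was found in 47.7% and 59.9% of B cells, and Sla, an adaptor that reduces antigen receptor levels, in 25.2% and 37.9%. Grap, an adaptor related to Grb2, was at 58.6% and 49.1%. Slamf6, a receptor of the SLAM family, was higher in the B cells at 35.6% and 48.5%. The T cell clusters 4 and 8 list Slamf6 as lower, at 50% and 33.0% in cluster 4 and at 49.7% and 35.4% in cluster 8. Cd48, a ligand of the same family, was at 39.6% and 33.1%. Btla, an inhibitory receptor of B and T cells, was at 52.3% and 46.9%, within 10 points. Il21r, the receptor of a cytokine that T cells provide to B cells, was lower, at 36.5% and 22.5%. Gimap3, a GTPase of lymphocyte survival, was at 50.9% and 38.2%, and 4 other clusters list it as lower too.

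Few genes that define the B lineage have a value. Of 24 genes of the receptor and surface list, Cd55 and Cd79b are listed, and neither reached 10 points. Of 23 transcription factors of B cells and plasma cells, 3 are listed. Foxp1, which is needed for early B cells, was at 94.1% and 95.9%. Mef2c, which acts downstream of the receptor, was at 95.9% and 97.0%. Xbp1, the factor of the secretory program, was at 43.2% and 38.8%. Fli1, an ETS factor of lymphocytes, endothelium and platelets, was lower in B cells at 52.3% and 37.7%. Clusters 0, 1 and 3 list Fli1 as higher, with 60.9% and 80.5% in cluster 0, and cluster 14 lists it as lower. Satb1, a chromatin organiser of lymphocytes that was picked here after its values were seen, was at 36.5% and 49.1%.

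Of 22 genes of homing and survival, 2 are listed. Cxcr4, the receptor for the chemokine that retains lymphocytes in tissue, was found in 20.7% of control B cells and 35.5% of those of the library labelled depleted. In 4 other clusters its difference ran from -16.1 to 20.8 points. Ltb, a cytokine with which B cells shape lymphoid tissue, was at 92.3% and 90.2%. Of 31 genes of activation and the immediate early response, Rel was lower as given above and Btg1, which restrains proliferation, was at 99.5% and 98.9%. The lists of immunoglobulin genes, MHC class I, MHC class II, cell cycle genes, chaperones and mitochondrially encoded genes have no member in the B cell table, and neither do the marker lists of T cells, NK cells, dendritic cells, fibroblasts, endothelium, erythroid cells and cardiomyocytes.

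Markers of myeloid cells were found in large shares of the B cells, and 3 of the 4 listed were lower by at least 10 points in the library labelled depleted, where 19.5% of the whole table was. S100a9, an abundant calcium-binding protein of neutrophils, was at 79.7% in the control and 58.3% in the library labelled depleted. It was the only one of 14 neutrophil markers listed, S100a8 having no value here. S100a9 was lower in all 12 other clusters that list it, by 11.3 to 40.7 points, from control shares of 45.5% to 67.7%, all under that of the B cells. Of 19 macrophage markers 3 are listed, with control shares of 88.3% to 100% and shares of 73.2% to 99.5% in the library labelled depleted. The upper ends are those of Ftl1, a ferritin chain that was in 99.4% to 100% of control cells of the other clusters that list it. Lgals3, a galectin of macrophages, was at 88.3% and 73.2%. Tyrobp, a signalling adaptor of myeloid and NK cells, was at 95.5% and 82.9%. The same transcripts were listed in clusters of other cell types on the same scale. In cluster 5, the fibroblasts, S100a9 was at 49.7% and 9.1%, Lgals3 at 51.7% and 26.2%, and Ifi30 at 71.1% and 51.3%, each below its share in the B cells. Tyrobp was at 75.8% and 74.8% in cluster 7 and at 72.7% and 25.8% in cluster 10, both named T cells. The control share in cluster 10 rests on few cells. The depths of these clusters are not known. What part transcripts of myeloid cells had in the lower shares of S100a9, Lgals3, Tyrobp and Ifi30 was not tested. Ly6a was at 31.9% and 46.5% in cluster 5. In the separately normalised fibroblast subclusters the share of Apobec3 was lower in the library labelled depleted than in the control in 2 of 4.

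Transcripts that were almost absent from 1 library formed a small group. A share of at most 5% in 1 library and at least 25% in the other was held by 5 genes, 3.14% of the table, against 4.94% of listings in the other 17 tables. BC018473, a long noncoding RNA at chr11:116642993-116650199 on the plus strand, was found in 50.5% of control B cells and 0% of those of the library labelled depleted, and was lower in all 15 other clusters that list it, by 29.0 to 100 points. Mettl23, a methyltransferase gene 83257 bases away, was higher, at 22.5% and 40.7%. Gm42031, a noncoding RNA at chr8:85852501-85858918 on the minus strand, was at 27.0% and 4.1%. Gm43305, a noncoding RNA at chr14:54529898-54534949 on the minus strand, was at 0.5% and 33.9%, and was at 0% in the control of each of the 4 other clusters that list it. Ftl1-ps2, a processed pseudogene of the ferritin light chain at chr10:130428026-130428574, was at 0.5% and 35.0%, and is the only listed gene found in all 17 other tables. Gm7429, a processed pseudogene at chrX:113890667-113891014, was at 2.3% and 43.4%.

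Of 9 listed pseudogenes, 6 were higher by at least 10 points, 1 was lower and 2 were within 10 points, in a table of which 27.7% was higher and 19.5% lower. Ftl1-ps2, Gm7429 and Rpl34-ps1 passed 25% of cells only in the library labelled depleted, and so had to differ to be listed. Rpl27a-ps4 was at 54.1% and 88.6% and Rpl34-ps1 at 10.4% and 44.4%, and both were higher in every other cluster that lists them, 16 and 15 in number. Outside cluster 9 the control share of Rpl34-ps1 was under 25%, so it could be listed only as higher. Gm15682 was at 77.9% and 96.2% and was higher in 16 other clusters. Gm12191 was lower, at 45.5% and 28.7%, as in 13 other clusters. Processed pseudogenes are near copies of the messenger RNA of their parent gene, and reads can be split between the copies, so these shares are uncertain. The ferritin light chain gene itself, Ftl1, was at 100% and 99.5%. Of 18 ribosomal protein genes none reached 10 points, and 16 of them were at 99% or more in both libraries, among 25 genes of that kind in all. These 25 are 15.7% of the table, against 5.47% of listings in the other tables. Rps6, a protein of the small subunit, was at 97.3% and 91.6%.

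**Figure D3:**
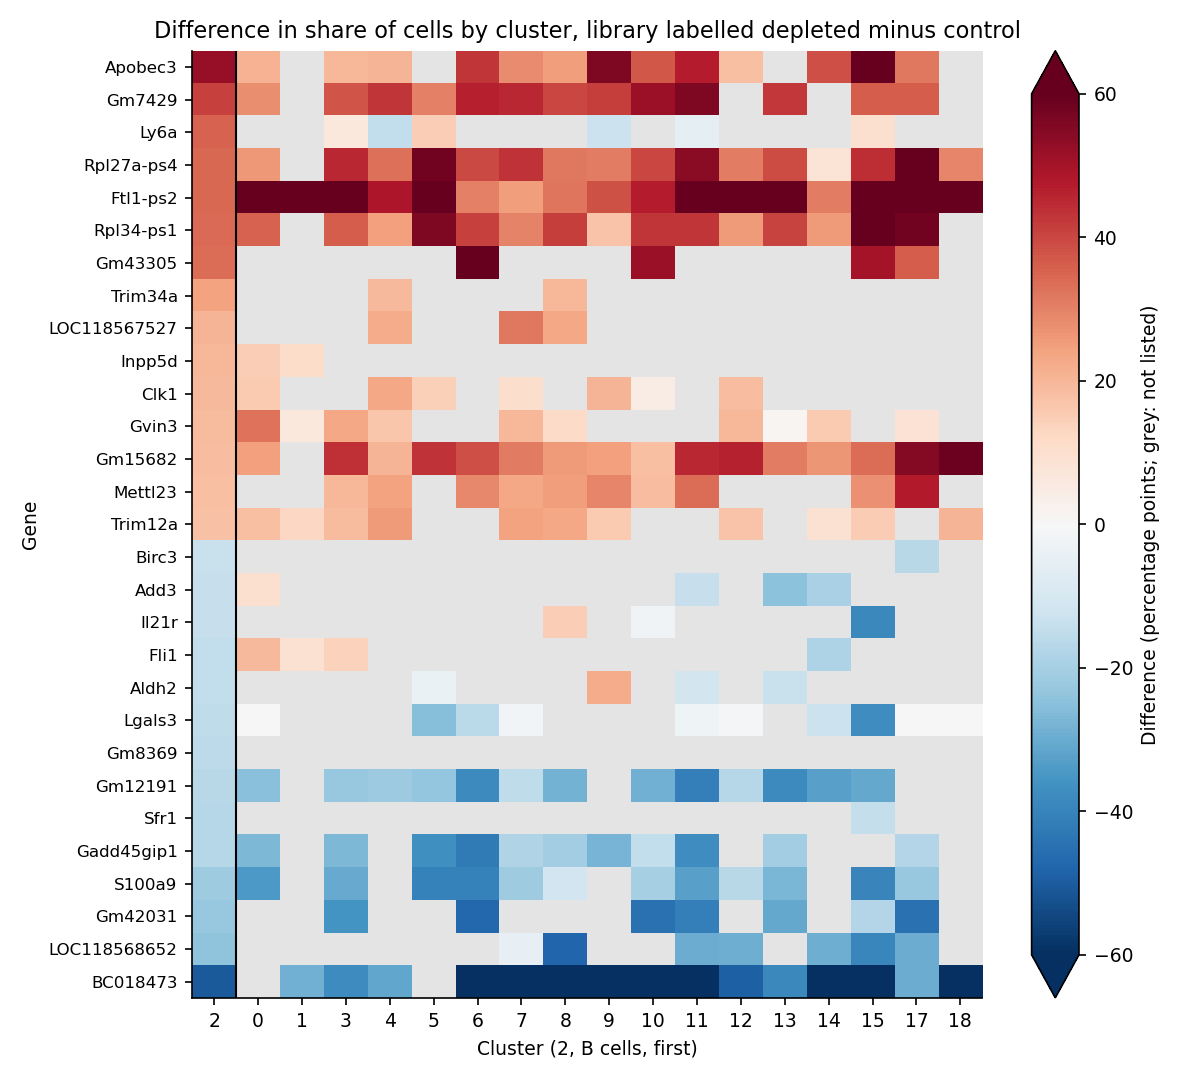
The difference in share, in percentage points, is coloured for the genes with the largest differences in the B cells (rows) across the 18 cluster tables (columns), with grey cells where a gene is not listed. Colours end at 60 points in each direction and larger differences take the end colour. Apobec3, Ftl1-ps2 and BC018473 keep 1 direction across the clusters that list them, while Ly6a and Fli1 have both. The 25% limit allowed only that direction for Ftl1-ps2 and BC018473 in every cluster, and for Apobec3 outside clusters 7, 11, 14 and 17.

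Only 5 of the 159 genes were listed in the B cells alone, which is 3.14%, against 18.5% of listings in the other tables, where tables are longer. Scd1, the desaturase that makes monounsaturated fatty acids, was found in 59.5% of control B cells and 73.7% of those of the library labelled depleted. Malt1, at 29.3% and 41.5%, was given above. Dennd4a, an activator of Rab GTPases at chr9:64718604-64827061, was lower at 41.9% and 30.6%. Gm8369, at chr19:11463302-11489941 on the plus strand, was lower at 39.2% and 23.6%, and is the only listed gene without a value in the fibroblast subclusters. Cd55, which protects cells from complement, was at 69.8% and 68.8%. Being listed once does not make a transcript particular to B cells. In the separately normalised fibroblast subclusters Scd1 was found in 52.2% to 66.9% of control cells and Malt1 in 12.5% to 14.5%, so both transcripts were counted in cells outside cluster 2 as well. The count rests on cluster 15 in part, since 10 genes were listed in the B cells alone when that table was left out.

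Of the 44 higher genes 13 were listed in at most 2 other clusters, as were 7 of the 31 lower genes and 17 of the 84 genes within 10 points. Among the higher and lower genes of that kind, and picked after their values were seen, Maml2, a coactivator of Notch, was at 34.2% and 49.9%, and Inpp4b, another inositol phosphatase, was at 14.0% and 27.1%. Sfr1, a DNA repair factor, was lower at 62.6% and 45.5%, and is listed elsewhere only in cluster 15. At the other end 45 genes were listed in at least 9 other clusters, and 20 of these differed by at least 10 points in the B cells, 14 higher and 6 lower. The difference had 1 direction in every other table that lists the gene for 10 of the 14 and 5 of the 6. The 25% limit set many of these directions, and in every table those of BC018473, Ftl1-ps2 and Gm7429. Nothing about agreement between clusters is therefore read from these counts. Gadd45gip1, a mitochondrial ribosome protein, was lower at 31.5% and 14.4%, as in 11 other clusters. Tsc22d3, a glucocorticoid-induced leucine zipper chosen after its values were seen, was at 50.5% and 65.9% in the B cells, and was higher in 9 other clusters and lower in cluster 4. The median number of other clusters was 5 for the higher genes, 4 for the lower genes and 6 for those within 10 points.

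**Figure D4:**
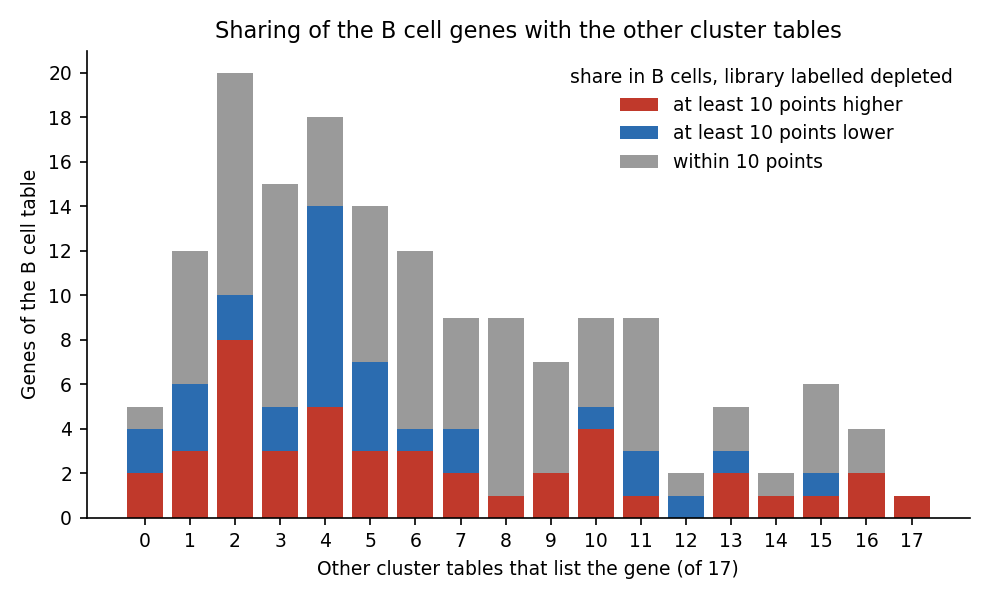
The number of B cell genes is stacked by how many of the other 17 cluster tables list them, with genes higher by at least 10 points, lower by at least 10 points and within 10 points in separate colours. The bar at 0 holds the 5 genes listed in the B cells alone and the bar at 17 holds Ftl1-ps2.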

How the data were processed

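Reads of both libraries were processed by the authors with Cell Ranger 6.1.1 against GRCm39, and cells were filtered, normalised with SCTransform, clustered and named in Seurat. Neither the methods nor the code names a doublet caller, so doublets may remain. For each cluster the authors deposited, by gene, the fraction of cells of each library whose corrected count exceeded 0, given to 3 decimals. These fractions are the only values used here, and are printed as percent. The same tables hold p-values, adjusted p-values and average log2 fold changes from a Wilcoxon test over cells, which were not used. The depth and cell number of each cluster in each library, which lie behind each fraction, are not given. The fibroblast cluster was normalised again on its own to make the subcluster tables, so their fractions are on another scale.

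Differences, counts and medians were computed in Python 3.11.15 with pandas 2.3.3, and the counting was tested on simulated data. Both libraries entered every description, 1 per genotype, and no test of genotype was made. Named genes were the 15 largest differences in each direction, genes at 5% or less in 1 library and at least 25% in the other, genes listed in cluster 2 alone with at least 10 points, members of gene lists, and the targeted genes. Others are marked where they appear, and results for some genes are not reported here, although counts include them. Members and lists were chosen with earlier results of these data known. Positions and biotypes come from GENCODE on GRCm39, in which 152 of 159 symbols matched, and promoters come from RefSeq on GRCm38.p6. Cluster 16 was not analysed here. Alternatives were other limits, pseudocounts on a log2 ratio, filters on genes, and left-out clusters.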

Additional observations from a re-analysis of the deposited data

Results flagged for a closer look

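For 4 of the genes with the largest differences in the B cells, both libraries of another cluster lay the opposite way around by at least 10 points. The difference between the clusters was not tested in any of these cases, since each group held 1 library. The difference of Ly6a, the surface protein Sca-1, was 35.3 points in B cells and -14.8 points in cluster 4, a T cell cluster. Aldh2, an aldehyde dehydrogenase of mitochondria, was at 74.3% and 59.6% in B cells, a difference of -14.7 points. It differed by 22.4 points in cluster 9, where the control share rests on few cells. The difference of the ETS factor Fli1 was -14.6 points in B cells and 19.6 points in cluster 0, a cluster of macrophages and monocytes. The difference of Il21r, the receptor of interleukin-21, was -14.0 points in B cells and 14.7 points in cluster 8, a T cell cluster.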

How the results depend on the processing

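No paired analysis was possible because there was a single library of each genotype, and for the same reason no replicate could be left out. Of the values recomputed under alternatives, 27 moved by more than the limit set for them and 11 did not. With genes at a share of at least 50% alone, 12 were higher by at least 10 points and 19 lower, the median was -0.55 points, and 1 gene was nearly absent from 1 library. Without ribosomal protein genes and pseudogenes the median was -1.8 points and 3 genes were nearly absent from 1 library, and without genes at 99% or more in both libraries the median was -2.3 points. Among genes listed in B cells alone, 2 were higher and 2 lower, the median was -1.0 points and 0 were nearly absent. At a limit of 5 points 61 genes were lower, and at 20 points 9 were higher and 5 lower. On a log2 ratio, 9 were higher and 4 lower with a pseudocount of 1, and 6 and 3 with a pseudocount of 5. At most 2% as the low limit left 3 nearly absent genes. Genes listed in B cells alone numbered 10 without cluster 15, 8 without clusters 6, 9 and 10, 17 where only listings at a share of at least 50% counted, 35 where only listings of the same direction counted, and 15 without clusters 15, 17 and 18, the last chosen after seeing the data. Genes listed widely numbered 21 with the same direction required, 89 at a limit of 5 other clusters and 20 at a limit of 12. The cell number and depth of each cluster in each library are not in the tables, so the precision of every share is unknown.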

Other observations

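The genes of RNA processing and of metabolism given here for the B cells were picked after their values were seen. Clk1, a kinase that phosphorylates splicing factors and 1 of the 15 largest differences upward, was at 41.9% in the control and 61.2% in the library labelled depleted, and was higher in all 7 other clusters that list it. Pnisr, a nuclear protein related to splicing factors, was at 41.4% and 56.6%, and the splicing regulator Rbm5 was at 29.7% and 44.2%. Scaf11, another splicing-related protein, was at 71.6% and 58.8%, and the spliceosome subunit Sf3b5 was at 59.0% and 50.1%. Among metabolic genes, Acadl, a dehydrogenase of fatty acid oxidation, was at 20.3% and 33.6%, while Gstp1, a glutathione transferase, was at 27.0% and 14.1%. Cox14, an assembly factor of cytochrome oxidase, was at 48.2% and 38.2%.

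Of 151 listed genes with a single annotated position, 8 neighbouring pairs lay within 100000 bases of each other. Both genes were higher by at least 10 points in 2 pairs, those of Trim34a with Trim5 and Trim5 with Trim12a. Both were lower in 1 pair, Birc3 at 36.9% and 23.6% and Tmem123, a surface mucin-like protein named after its values were seen, at 64.4% and 53.9%, 51442 bases apart. The genes of 1 pair, BC018473 and Mettl23, differed in opposite directions.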
